A study of Mus musculus with 4 samples.

Results

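Genes of DNA replication and of mitosis were followed through the cells of the mouse incisor. The set held 50 genes, taken by symbol from the 32285 genes of the count matrices: 20 genes of S phase, 25 of mitosis and 5 cyclins of the D and E types. The cells were taken at postnatal day 15 from the proximal part of lower incisors, as 2 libraries of wild-type (WT) mice and 2 of Din-KO mice, profiled by droplet single-cell RNA-seq of 3′ ends. Din (4930453N24Rik) is a gene on chromosome 16, and the Din-KO allele is a gene trap converted by germline Cre, which removed exon 2 and left LacZ under the gene's own promoter in every tissue. The number of mice behind each library was not given, so the p-values measure the spread between libraries, which may be partly technical. Sets of 4 values stand in the order WT replicate 1, WT replicate 2, Din-KO replicate 1, Din-KO replicate 2.

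The mouse incisor grows throughout life, and its proximal end holds the dividing cells that renew enamel epithelium, dental pulp and odontoblasts, the cells that secrete dentin and no longer divide. Before S phase, cyclins of the D and E types drive cyclin-dependent kinases that release E2F transcription factors, which switch on the genes of DNA replication. The MCM proteins form the helicase that opens DNA, PCNA is the clamp that holds the polymerases, and ribonucleotide reductase supplies the nucleotides. Genes of G2 and mitosis, such as those of cyclin B, CDK1, topoisomerase II alpha and the kinesin motors, are switched on later through CHR and CCAAT promoter elements.

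The promoter windows are shown because the S-phase and mitotic members differed in these letters. Windows reach from 250 bases before to 50 bases after each RefSeq gene start (GRCm38.p6), and 42 of the 50 members had one, with 46 windows in all. No window was held for Mcm4, Gins2, Ccna2, Aurkb, Tpx2, Ccne2, Ccnd1 and Ccnd2. Both strands were searched for 4 E2F words (TTTCCCGC, TTTCGCGC, TTTGCCGC and TTTGGCGC), for the CHR word TTTGAA and for CCAAT, with overlapping matches merged in print. An E2F word was in 7 of 21 S-phase windows (33.3%), in 1 of 22 mitotic windows (4.55%) and in 2.26% of all 32851 mouse windows. CHR was in 17 of 22 mitotic windows (77.3%), in 14.3% of S-phase windows and in 17.9% of all windows. CCAAT was in 81.8% of mitotic and 66.7% of S-phase windows, against 37.4% of all windows. CHR and CCAAT stood together in 15 of 22 mitotic windows (68.2%), in 9.52% of S-phase windows and in 6.95% of all windows. These matches describe letters and are not evidence of binding. In the windows below, written 5′ to 3′ on the gene's strand, capitals mark the E2F, CHR and CCAAT matches on either strand. The first 3 belong to subunits of the MCM helicase and the last 3 to a topoisomerase that untangles chromosomes, a protein coating mitotic chromosomes and the mitotic kinase.
Mcm3 (chr1:20820263-20820562, minus strand): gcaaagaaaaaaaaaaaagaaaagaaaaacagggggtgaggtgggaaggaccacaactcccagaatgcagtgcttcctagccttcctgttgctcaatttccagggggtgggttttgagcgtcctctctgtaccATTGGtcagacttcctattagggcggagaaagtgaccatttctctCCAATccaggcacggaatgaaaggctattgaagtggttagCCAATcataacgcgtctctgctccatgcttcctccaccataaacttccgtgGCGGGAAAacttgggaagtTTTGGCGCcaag
Mcm5 (chr8:75109259-75109558, plus strand): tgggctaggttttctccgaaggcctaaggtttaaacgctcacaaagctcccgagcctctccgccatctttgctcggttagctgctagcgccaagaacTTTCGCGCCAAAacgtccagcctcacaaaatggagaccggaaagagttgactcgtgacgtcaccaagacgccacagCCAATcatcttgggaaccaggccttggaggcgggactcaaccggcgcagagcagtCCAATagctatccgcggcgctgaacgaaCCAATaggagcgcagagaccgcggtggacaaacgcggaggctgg
Mcm6 (chr1:128359656-128359955, minus strand): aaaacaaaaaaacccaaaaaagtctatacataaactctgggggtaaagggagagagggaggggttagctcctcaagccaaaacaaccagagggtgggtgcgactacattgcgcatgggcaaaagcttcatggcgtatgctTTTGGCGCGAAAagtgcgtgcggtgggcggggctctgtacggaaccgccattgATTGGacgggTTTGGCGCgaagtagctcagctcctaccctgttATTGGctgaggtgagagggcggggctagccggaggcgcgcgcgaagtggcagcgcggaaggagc
Top2a (chr11:99024140-99024439, minus strand): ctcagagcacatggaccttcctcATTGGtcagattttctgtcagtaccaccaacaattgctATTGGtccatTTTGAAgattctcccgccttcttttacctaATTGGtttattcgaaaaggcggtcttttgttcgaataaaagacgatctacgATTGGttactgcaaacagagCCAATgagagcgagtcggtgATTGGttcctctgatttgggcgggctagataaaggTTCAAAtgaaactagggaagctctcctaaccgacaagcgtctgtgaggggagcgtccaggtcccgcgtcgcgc
Mki67 (chr7:135716330-135716629, minus strand): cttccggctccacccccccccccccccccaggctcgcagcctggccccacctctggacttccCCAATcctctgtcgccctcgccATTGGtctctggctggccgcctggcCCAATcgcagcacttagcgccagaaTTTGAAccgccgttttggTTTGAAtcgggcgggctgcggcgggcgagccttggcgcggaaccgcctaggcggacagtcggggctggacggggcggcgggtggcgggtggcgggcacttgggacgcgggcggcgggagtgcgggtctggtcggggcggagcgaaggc
Cdk1 (chr10:69352863-69353162, minus strand): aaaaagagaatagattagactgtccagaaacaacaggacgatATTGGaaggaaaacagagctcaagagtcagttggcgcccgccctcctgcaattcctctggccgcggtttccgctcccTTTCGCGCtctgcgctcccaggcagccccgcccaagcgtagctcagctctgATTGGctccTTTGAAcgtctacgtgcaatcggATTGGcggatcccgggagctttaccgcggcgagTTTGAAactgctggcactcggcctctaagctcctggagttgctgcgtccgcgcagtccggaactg
Mcm3 and Mcm5 each held 2 E2F matches and Mcm6 held 3. None of these 3 windows held a CHR match. They do not stand for all MCM genes, since the Mcm2 window, not printed, held 0 E2F matches and 1 CHR match. The Mcm7 windows, also not printed, held 0 and 2 E2F matches. Top2a, Mki67 and Cdk1 each held 2 CHR matches, and Cdk1 also held 1 E2F match.

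The matrices held 20502 barcodes, of which 11310 passed the limits on genes, mitochondrial and hemoglobin UMIs. Kept cells numbered 1272 to 4575 per library, with a median of 8016 to 11588 UMIs, and libraries held 32198098 to 54348039 UMIs in all. Pairs of libraries shared at most 4 barcodes. Clustering without 93 cycle genes gave 31 clusters, and 10 classes with enough cells in each library entered the comparisons. The classes were built from the same cells. Cell-cycle scores were regressed out and 24 histone genes stayed among the variable genes, so the classes are not independent of the cycle. The p-values of class comparisons cover the spread between libraries and not the uncertainty of clustering. One mesenchyme-like cluster, led by Cldn10, Syt6 and Slc20a2, carried only 2 pulp markers and was given no subtype name. Odontoblast-like cells carried 8 of 8 odontoblast markers. The annotation (GENCODE vM21, GRCm38) gives the coding Din transcript 3 exons on the minus strand, with exon 2 at chr16:64768924-64769162 and the last at chr16:64762136-64766993. Reads of 3′ ends fall outside the removed exon, so the Din level does not test the deletion. It stood at 36.3, 28.5, 22.8 and 28.3 CPM (counts scaled to a common total) in mesenchyme-like cells, at 21.4, 16.8, 7.48 and 6.40 in macrophage-like cells and at 29.2, 22.6, 4.81 and 6.69 in B precursor-like cells. UMIs of Y-linked genes were found in 0% of WT mesenchyme-like cells in both libraries and in 43.5% and 43.7% of Din-KO mesenchyme-like cells. Sex and genotype cannot be told apart over all cells, so values in cells with Xist alone are given beside the genotype results.

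To compare classes at equal depth, each cell was thinned to 2000 UMIs, and a cell was counted when it held UMIs of at least 2 of 13 core S-phase genes or of at least 2 of 23 core mitotic genes. Among the 10 classes compared, B precursor-like cells had the highest shares, 34.1% ± 8.8 with S-phase genes and 44.9% ± 8.9 with mitotic genes (mean ± SD, n = 4 libraries). Their S-phase shares were 43.3%, 26.0%, 40.0% and 27.1% and their mitotic shares 52.9%, 32.3%, 48.6% and 45.8%. Every B precursor-like library lay above every mesenchymal library on both measures. Odontoblast-like cells had the lowest S-phase share, 0.70% ± 0.83, and a mitotic share of 2.54% ± 3.0, from 2 and 4 of 226 cells. Their S-phase shares were 0%, 1.18%, 0% and 1.64%, where the 0 of 35 cells and 0 of 45 cells allow shares of up to 8.57% and 6.67% at a limit of 3 counts, or 10.0% and 7.87% as exact 95% upper bounds. Because odontoblasts no longer divide, this class served as a rough reference for free RNA, which was not removed. Its mitotic share was 5.71% in WT replicate 1, from 2 of 35 cells. The Cldn10-led cluster had 1.01% ± 0.68 and the lowest mitotic share, 0.84% ± 0.98, not above the odontoblast-like class beyond its spread. Median UMIs per cell were 17308 to 22399 in odontoblast-like and 7425 to 12031 in Cldn10-led cells. Whether free RNA made up the same fraction of both was not tested.

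Dental pulp-like and dental follicle-like cells had overlapping shares. Pulp-like libraries had S-phase shares of 7.20%, 13.7%, 7.85% and 10.7%, with a mean of 9.87% ± 3.0, and follicle-like libraries 8.36%, 5.40%, 9.52% and 7.26%, with a mean of 7.64% ± 1.8. The mitotic shares were 9.71% ± 2.3 in pulp-like and 11.2% ± 1.7 in follicle-like cells. They ran from 7.62% to 12.2% and from 9.52% to 13.4% over the libraries, so these ranges overlapped. The pulp-like class had 346 cells with mitotic genes. It includes 156 of the 158 cells of a cluster led by histone genes, described below, of which 143 had mitotic genes. The mitotic overlap thus holds with these cells counted as pulp-like and may not hold without them. Epithelium-like cells averaged 14.5% ± 11.3 and 17.7% ± 9.4, and spread from 4.10% to 30.6% for S-phase genes. The 30.6% came from WT replicate 1 and the 4.10% from WT replicate 2, so the spread lay within one genotype. Endothelium-like cells averaged 9.74% ± 3.7 and 10.1% ± 4.2, and macrophage-like cells 8.39% ± 3.9 and 9.12% ± 4.5. Neighbours in this order from epithelium-like to follicle-like cells did not differ beyond their spread. Without thinning the S-phase shares were 40.0% in pulp-like, 47.7% in follicle-like and 26.1% in odontoblast-like cells, where median UMIs per cell were 7213 to 12389, 10708 to 18042 and 17308 to 22399 over the libraries.

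**Figure D1:**
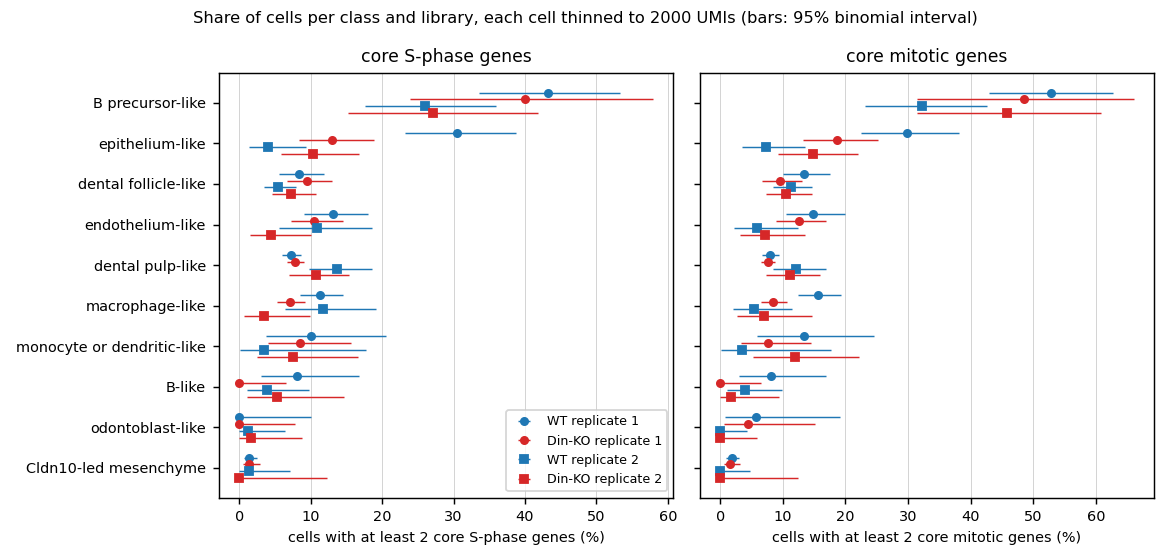
Share of cells with at least 2 core S-phase genes and with at least 2 core mitotic genes after thinning to 2000 UMIs, in percent, by class; points are libraries and bars their 95% exact binomial intervals, which cover counting error only. B precursor-like libraries sit from 26.0% to 43.3% for S-phase genes, and odontoblast-like and Cldn10-led cells at 1.64% or less.

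Within classes the cycling cells were gathered in a few clusters. Among pulp-like clusters the one led by Tac1, Smpd3 and Notum had 19.7% of 707 cells with S-phase genes and 21.5% with mitotic genes, and its mitotic share ran from 16.9% to 28.6% over the libraries. The pulp-like clusters led by Grik1 (1170 cells) and Smoc2 (836 cells) had 3.33% and 4.31% with S-phase genes and 1.37% and 1.32% with mitotic genes. These are pooled shares, and in the Smoc2-led cluster the S-phase share was 3.54% and 3.79% in the libraries numbered 1 and 10.0% (of 30 cells) and 9.26% (of 54 cells) in those numbered 2. The other pulp-like clusters with their own leading genes, Cnmd, Ifitm1 and Pdlim3, lay between 1.09% and 2.34% for S-phase genes and between 0.78% and 3.28% for mitotic genes. In the follicle-like class the cluster led by Bmp3, Dkk2 and Fibin had 14.6% (from 7.43% to 24.2% over the libraries) and 25.0% of 452 cells, against 3.89% and 4.28% of 771 cells in the cluster led by Sfrp2. In the epithelium the cluster with Shh and Epcam among its leading genes had 25.7% (from 15.2% to 35.8% over the libraries) and 31.4% of 331 cells. The cluster led by the enamel matrix genes Enam, Amelx and Amtn had 0.40% on both measures, which is 1 cell of 247 (95% interval from 0.010% to 2.23%). The mean of the epithelial class thus averages over both clusters.

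One cluster of 158 mesenchymal cells was led by histone genes, which are transcribed with DNA synthesis, and had 67.1% and 90.5%. These cells numbered 52, 16, 80 and 10 over the libraries. Each took the subtype of the cluster whose mean log-normalised counts correlated best with its own, and 156 were counted as pulp-like. The smaller B precursor-like cluster, led by Myl4 and the histone gene Hist1h2ae, had 82.6% and 98.6% of 69 cells. The larger one had 18.7% and 26.6% of 214 cells. Among macrophage-like clusters the one led by Ccl2 and Pf4 had 22.8% and 39.8% of 123 cells, and that led by Ctss 3.95% and 5.31% of 659 cells. The endothelium-like cluster led by Aplnr had 15.7% and 16.95% of 472 cells, and the other 2 had from 0.82% to 3.31% on either measure. The clusters differ in their make-up between libraries: the Smoc2-led pulp-like cluster held 199, 30, 559 and 55 cells.

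**Figure D2:**
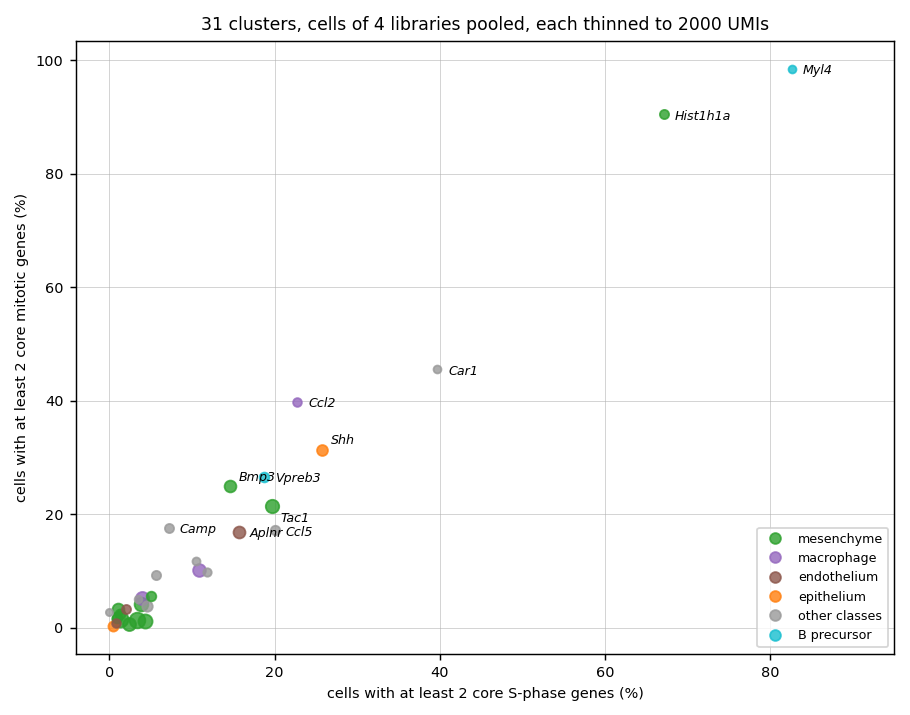
Each circle is one of the 31 clusters, with the share of its cells with core S-phase genes on the x axis and with core mitotic genes on the y axis, both in percent of cells thinned to 2000 UMIs and pooled over libraries; larger circles hold more cells, colours give the class, and labels name a leading gene. Most mesenchymal clusters lie near the origin, and the histone-led cluster (67.1% and 90.5%) and the Myl4-led B precursor-like cluster (82.6% and 98.6%) lie farthest from it.

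The same classes were then compared gene by gene, with UMIs summed per library and class, and each class set against the mean of the other 9 with edgeR's quasi-likelihood test and library as a block. A gene was called at an adjusted p under 0.05 over the 13035 genes tested. In B precursor-like cells 48 of the 50 members were higher, where 24.9% of all genes were called higher, and 1, Ccnd2, was lower, a call lost without WT replicate 1 or Din-KO replicate 2. All 20 S-phase and all 25 mitotic members were among them. Rrm2, the small subunit of ribonucleotide reductase, stood at 349, 224, 341 and 274 CPM, with a log2 fold of 4.70 (SE 0.24, adjusted p = 3.81e-18). Ccna2, the cyclin of S phase and G2, stood at 228, 169, 255 and 157 CPM, with a log2 fold of 4.26 (SE 0.24, adjusted p = 1.1e-16). Nusap1, which binds spindle microtubules, stood at 538, 208, 620 and 268 CPM, with a log2 fold of 4.20 (SE 0.26, adjusted p = 1.25e-15). The lowest B precursor-like library exceeded every library of the other 9 classes for all 3 genes. Of replication and mitosis genes outside the set, 36 of 36 and 47 of 47 were also higher.

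The Cldn10-led cluster and the odontoblast-like cells were the low end. In the Cldn10-led cluster 49 members were lower and 0 higher, where 23.1% and 29.6% of all genes were called, and only Dut, which keeps uracil out of DNA, was not called, at a log2 fold of 0.08. Ube2c, which tags cyclin B for destruction, stood at 3.34, 0, 2.86 and 0 CPM there (log2 fold −5.22, SE 0.67, adjusted p = 3.81e-08). Top2a stood at 5.01, 2.59, 12.0 and 0 CPM (log2 fold −4.35, SE 0.53, adjusted p = 1.33e-08), and Uhrf1, which carries DNA methylation through replication, had a log2 fold of −4.31 (SE 0.51, adjusted p = 9.23e-09). In odontoblast-like cells 42 members were lower, where 22.7% of all genes were called lower, and 3 were higher. The lower ones included Cdc20, an activator of the anaphase complex, at 2.42, 0, 0.753 and 0.581 CPM (log2 fold −4.17, SE 0.65, adjusted p = 1.64e-06). Aurkb, the kinase of the chromosomal passenger complex, had a log2 fold of −4.02 (SE 0.60, adjusted p = 6.49e-07) and the checkpoint kinase Bub1 one of −3.99 (SE 0.84, adjusted p = 0.000138). The 3 higher were Ccnd2 at a log2 fold of 1.44, Ccnb1 at 0.97 and the tubulin gene Tubb4b at 0.36, a count of 1 without WT replicate 2. Many of these sums held few UMIs (Ube2c had none in 2 libraries of the Cldn10-led cluster), so the fitted folds depend on the prior count and are not bounds.

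In pulp-like cells 30 members were higher and 1 lower, where 32.1% and 20% of all genes were called, and in follicle-like cells 28 were higher and 2 lower, where 32.9% and 18.7% were called. Mitotic members carried most of this, with 21 of 25 higher in each class, against 8 of 20 S-phase members in pulp-like and 4 of 20 in follicle-like cells. The reference mean includes the Cldn10-led cluster and odontoblast-like cells, whose median log2 folds over mitotic members were −3.61 and −3.04. Such low classes raise the folds of the rest, so the calls do not rank pulp-like or follicle-like cells above the remaining classes. Mitotic shares at equal depth were 9.71% in pulp-like, 9.12% in macrophage-like and 10.1% in endothelium-like cells. Of their mitotic members 21, 17 and 3 were called higher. The pulp count is not stable: it was 10 without WT replicate 2, 13 without Din-KO replicate 2 and 7 without the histone-led cluster. It was 4 with the Cldn10-led cluster counted as pulp, which also takes that cluster out of the reference. The largest called folds in pulp-like cells were those of Ccnd1 at 1.69 (SE 0.32, adjusted p = 2.84e-05), Ube2c at 1.48 (SE 0.31, adjusted p = 0.000148) and Cenpf, a kinetochore protein, at 1.43 (SE 0.29, adjusted p = 7.58e-05). In follicle-like cells they were those of Ccnd2 at 2.02 (SE 0.19, adjusted p = 2.18e-11), Cenpf at 1.79 (SE 0.27, adjusted p = 1.13e-06) and Anln, an actin-binding protein of the cleavage furrow, at 1.71 (SE 0.24, adjusted p = 2.61e-07). Cenpf stood at 75.6, 104, 71.7 and 107 CPM in pulp-like cells and at 187, 94.1, 94.0 and 102 in follicle-like cells. Its high value in follicle-like cells came from WT replicate 1.

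The other classes stood between these. Macrophage-like cells had 25 members higher and 4 lower, where 28.7% and 20.9% of all genes were called, and 14 higher without Din-KO replicate 2. Their largest called folds were those of Ccnd2 at −1.54 (SE 0.27, adjusted p = 8.98e-06), Ccnd1 at 1.52 (SE 0.33, adjusted p = 0.000183) and Dut at −1.24 (SE 0.22, adjusted p = 1.35e-05). Monocyte or dendritic-like cells had 13 higher and 2 lower, where 24% and 19.6% were called, led by the replication licensing factor Cdc6 at 2.13 (SE 0.52, adjusted p = 0.000905), Mcm5 at 1.64 and Ccnd3 at 1.41, and 7 higher without Din-KO replicate 2. Epithelium-like cells had 10 higher and 2 lower, where 30.9% and 19.1% were called, a count that rose to 24 without WT replicate 2 and dropped to 3 without Din-KO replicate 1. Their largest called folds were those of Ccnd3 at −2.06 (SE 0.15, adjusted p = 5.9e-14), Ccnd1 at 1.42 and the chromatin remodeller Hells at 1.39 (SE 0.18, adjusted p = 7.18e-08). Endothelium-like cells had 6 higher and 3 lower, where 28.6% and 16.1% were called, led by Ccnd1 at 2.27 (SE 0.30, adjusted p = 7.34e-08), Ccne1 at −1.14 and the kinesin Cenpe at 0.76. The 6 fell to 2 without Din-KO replicate 1 and 3 without Din-KO replicate 2, and the 3 lower to between 0 and 2 without any 1 library. B-like cells had 1 higher and 4 lower, where 17% and 19% were called, with Ccnd1 at −3.04, the replisome subunit Gins2 at −1.98 and Ccnb1 at −1.78 as the largest. The 4 were 7 without WT replicate 1, 2 without WT replicate 2 or Din-KO replicate 1, and 1 without Din-KO replicate 2.

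**Figure D3:**
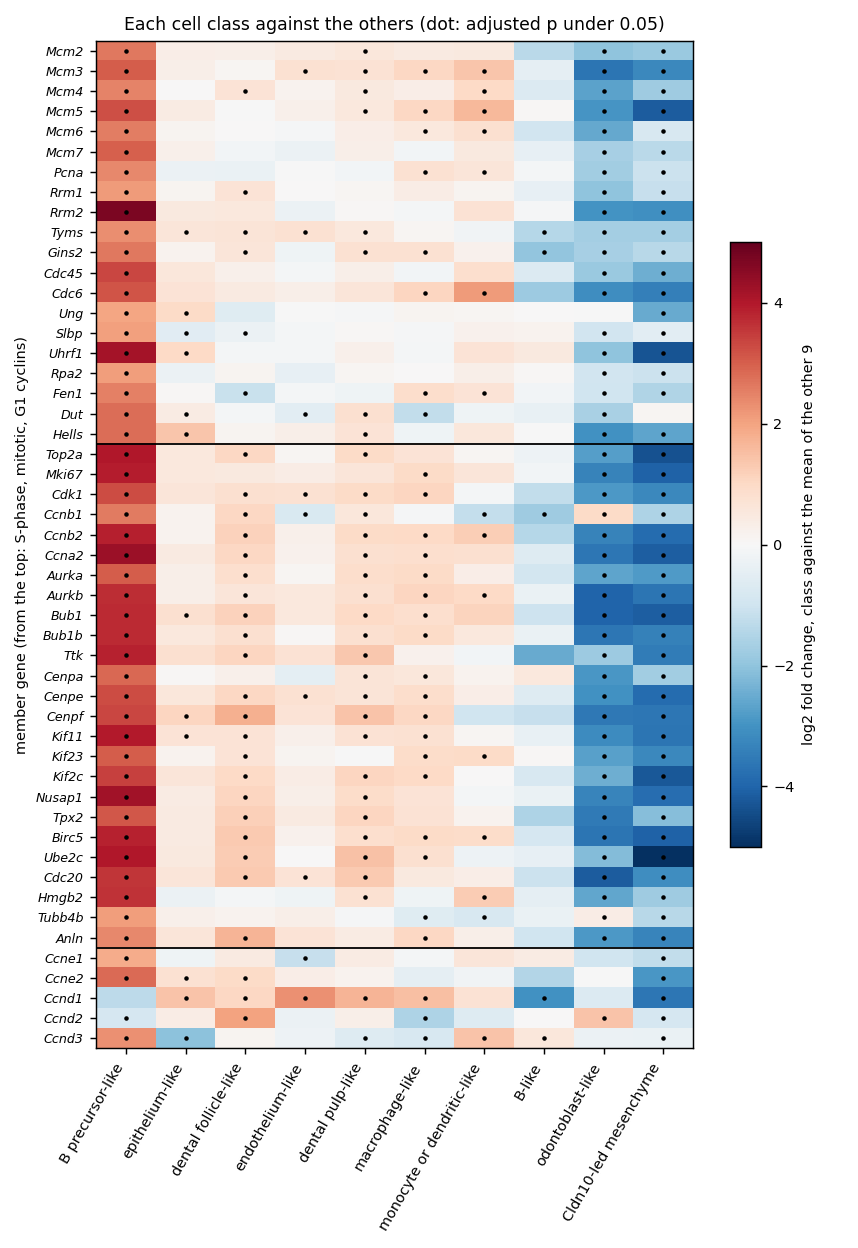
Log2 fold of each of the 50 members (rows, by role) in each of 10 classes against the mean of the other 9 (columns), with dots where the adjusted p was under 0.05. The B precursor-like column is high for 48 members, and the columns of the Cldn10-led cluster and of odontoblast-like cells are low for 49 and 42.

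Within the mesenchyme, pulp-like, follicle-like and odontoblast-like sums were set against each other in the same way, over 12856 genes. Of the members 43 were lower in odontoblast-like cells than in the mean of the others and 0 were higher, where 26.8% and 24.4% of all genes were called. In pulp-like cells 41 were higher and 2 lower, the latter being Ccnd2 and Ccnd3, where 20.1% and 17% were called. In follicle-like cells 41 were higher and 0 lower, where 22.8% and 19.5% were called. Pulp-like calls numbered 26 without WT replicate 2, and follicle-like calls 26 without Din-KO replicate 1. With histone genes also left out of the clustering the counts were 14, 9 and 33.

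All 6 MCM subunits were called in each of the 3 subtypes. Each subtype was set against the mean of the others, so the 3 folds of a gene are tied. A low level in odontoblast-like cells alone raises the folds in pulp-like and follicle-like cells. In the direct comparison of pulp-like with follicle-like cells below, only Mcm5 and Mcm7 of these subunits were called. Mcm3 stood at 20.8, 44.4, 30.7 and 40.7 CPM in pulp-like, 22.3, 18.6, 23.2 and 25.9 in follicle-like and 3.63, 0.818, 3.76 and 0 in odontoblast-like cells. No odontoblast-like library reached the lowest library of the other subtypes. Its log2 fold was 2.29 (SE 0.32, adjusted p = 0.000457) in pulp-like, 1.42 (SE 0.34, adjusted p = 0.00762) in follicle-like and −3.71 (SE 0.49, adjusted p = 0.00015) in odontoblast-like cells. Mcm2, Mcm4, Mcm5, Mcm6 and Mcm7 had log2 folds of 1.32, 1.34, 1.91, 1.49 and 1.11 in pulp-like, of 0.95, 1.58, 1.06, 1.02 and 0.45 in follicle-like and of −2.26, −2.92, −2.96, −2.50 and −1.57 in odontoblast-like cells. Mcm7 kept a level of 19.4, 13.5, 18.1 and 13.9 CPM in odontoblast-like cells, where the other subunits were at 8.48 CPM or less. Pcna stood at 71.7, 107, 83.5 and 96.1 CPM in pulp-like, 78.4, 68.3, 81.1 and 86.3 in follicle-like and 40.0, 19.2, 24.8 and 22.7 in odontoblast-like cells (log2 fold −1.35, SE 0.18, adjusted p = 0.000143). Pcna also repairs DNA outside S phase, and it stood at 39.7, 60.9, 47.4 and 68.0 CPM in the Cldn10-led cluster.

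Mitotic members were low in the same cells. Top2a stood at 135, 132, 162 and 139 CPM in pulp-like and at 227, 90.6, 171 and 159 in follicle-like cells. In odontoblast-like cells it stood at 50.9, 3.27, 11.3 and 2.32, with a log2 fold of −3.31 (SE 0.49, adjusted p = 0.0003). Mki67 stood at 55.7, 91.2, 69.0 and 75.9 CPM in pulp-like, 94.5, 60.3, 52.8 and 76.95 in follicle-like and 29.1, 0.818, 1.51 and 0.581 in odontoblast-like cells (log2 fold −3.48, SE 0.64, adjusted p = 0.00123). Cdk1 stood at 23.0, 0, 2.26 and 0 CPM in odontoblast-like cells, against 46.3 to 52.6 in pulp-like cells. In all 3 genes WT replicate 1, with 35 odontoblast-like cells, carried the highest value of that class. In a direct comparison chosen after the data were seen, 49 of 50 members were higher in pulp-like cells than in the Cldn10-led cluster, where 17.1% of 12038 genes were called higher, and Ccnd3 was not called.

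Pulp-like and follicle-like cells, also compared directly after the data were seen, differed in few members. Of the members 6 were higher in pulp-like cells and 4 in follicle-like cells, where 18.4% and 19.4% of 12838 genes were called. The 6 were the flap endonuclease gene Fen1 at a log2 fold of 0.91 (adjusted p = 0.00816), Dut at 0.84, the chromatin protein gene Hmgb2 at 0.72, Mcm5 at 0.58, Ccnd1 at 0.56 and Mcm7 at 0.45. The 4 were Ccnd2 at −1.51 (SE 0.11, adjusted p = 9.13e-05), Anln at −1.11, Ccne2 at −0.68 and Ccnd3 at −0.64. The median log2 fold was 0.29 for S-phase members and −0.09 for mitotic members. Without the histone-led cluster the counts were 2 and 11, without Din-KO replicate 2 only 2 were higher, and without WT replicate 2 there were 7 lower.

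For the cyclins of G1 the order of the classes differed from the order of their cycling shares. Ccnd1 was highest in endothelium-like cells at 269 ± 52.6 CPM (SD, n = 4), followed by pulp-like cells at 174 ± 63.0, macrophage-like cells at 147 ± 34.3, epithelium-like cells at 138 ± 82.1 and follicle-like cells at 118 ± 37.6, and it was called higher in all 5. In pulp-like cells it stood at 93.6, 224, 153 and 224 CPM, so these neighbours overlapped. It stood at 86.0 ± 52.0 CPM in monocyte or dendritic-like, 40.8 ± 65.7 in B precursor-like and 38.4 ± 32.6 in odontoblast-like cells, and was called lower in the Cldn10-led cluster at 9.11 ± 4.1 and in B-like cells at 8.46 ± 6.84. B precursor-like cells, with the most cycling cells, thus had little Ccnd1 outside 1 library.

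Ccnd2 was highest in follicle-like cells at 518, 461, 709 and 595 CPM, and next in the odontoblast-like cells, which had the lowest S-phase share, at 353 ± 242. Both were called higher. Pulp-like cells held 196 ± 37.1 CPM, epithelium-like 181 ± 96.8, B-like 163 ± 58.1 and endothelium-like 141 ± 17.9, and it was called lower in the Cldn10-led cluster (102 ± 11.9), in B precursor-like (86.6 ± 37.4) and in macrophage-like cells (58.2 ± 24.8). Ccnd3 was highest in B precursor-like cells at 308 ± 74.4 CPM, in monocyte or dendritic-like cells at 173 ± 38.8 and in B-like cells at 116 ± 15.0, all called higher, and lowest in epithelium-like cells at 19.2, 12.0, 20.5 and 21.3 CPM. It was also called lower in pulp-like cells (log2 fold −0.64), the Cldn10-led cluster (−0.33) and macrophage-like cells (−0.80), and stood at 89.6 ± 12.9 CPM in follicle-like, 73.6 ± 13.3 in endothelium-like and 54.0 ± 13.2 in odontoblast-like cells. Ccne1 and Ccne2, the E cyclins that open S phase, were highest in B precursor-like cells at 16.3 ± 9.5 and 65.2 ± 53.9 CPM. Ccne1 stood between 2.0 and 7.6 CPM in the other classes. Ccne2 was also called higher in follicle-like cells at 19.5 ± 10.7 CPM (log2 fold 0.96) and epithelium-like cells (0.76), and lower in the Cldn10-led cluster (−2.90).

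To place members in the cycle, pulp-like and follicle-like cells were divided by their core genes into cells with neither list, with S-phase genes only, with both and with mitotic genes only, and members outside the core lists were read in each. In pulp-like cells Pcna stood at 45.4 CPM in cells with neither list, 151 ± 22.9 with S-phase genes only, 227 with both and 95.4 with mitotic genes only (mean of 4 libraries, at 2000 UMIs per cell). In follicle-like cells the means had the same order, at 59.7, 167, 388 and 90.2. In single libraries Pcna was higher with S-phase genes only than with both in 2 of 4 pulp-like and 1 of 4 follicle-like libraries. Slbp, which binds histone mRNA in S phase, ran 52.4, 113, 170 and 64.0 CPM in pulp-like cells, and Rpa2, which coats single-stranded DNA, ran 13.7, 79.8, 149 and 17.8. Pcna, Rrm1, Slbp, Rpa2, Dut, Ccne2 and the mitotic member Hmgb2 were higher in S-phase-only cells than in cells with neither list in 4 of 4 pulp-like libraries. In follicle-like cells this held in 4 of 4 libraries for Slbp, Rpa2 and Hmgb2 and in 3 of 4 for Pcna, Rrm1, Dut and Ccne2.

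Hmgb2 and Tubb4b peaked later. Hmgb2 ran 240, 688, 2570 and 3183 CPM in pulp-like and 160, 399, 1936 and 2012 in follicle-like cells. Tubb4b ran 85.2, 52.5, 441 and 457 in pulp-like cells, and S-phase-only cells exceeded cells with neither list in 0 of 4 libraries. In follicle-like cells it ran 63.1, 70.8, 366 and 702, and S-phase-only cells were higher in 3 of 4 libraries. The D cyclins differed from these. Ccnd1 was highest in S-phase-only cells, at 273 CPM in pulp-like and 251 in follicle-like cells, and exceeded cells with mitotic genes only in 4 of 4 libraries of both classes. Ccnd2 stood at 261 CPM in pulp-like cells with neither list and at 58.5 in those with mitotic genes only, and at 636 and 307 in follicle-like cells, with the second level below the first in every library. Ccnd3 ran 72.9, 56.8, 41.0 and 25.7 CPM in pulp-like cells. These states hold 6 to 100 cells per library outside the cells with neither list, and are values without a test. Cycling cells were gathered in a few clusters, so the states also differ in cluster make-up. The part of that make-up in these levels was not tested.

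Across the 40 sums of 10 classes and 4 libraries the level of Mki67 was set against that of every other gene, as a description, since the sums share libraries, depth and the high B precursor-like values. Outside the set the genes most like it were Pclaf (Pearson r = 0.979), Kif4 (0.9498), Cep55 (0.947), Pbk (0.944) and Knl1 (0.943). Among members Kif11 and Bub1b had 0.967 and 0.952. The lowest were Ccnd2 (−0.12), Ccnd3 (0.26), Ccne1 (0.29) and Ccnd1 (0.35).

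Din-KO was compared with WT over the 7157 mesenchyme-like cells, summed per library. No member passed the test (0 of 50; 0% of 15278 genes were called by edgeR), and 0 members had an unadjusted p under 0.05, which 143 genes did. DESeq2 called 17 genes and 0 members. The S-phase members together stood at 555, 535, 645 and 630 CPM, so the WT and Din-KO libraries did not overlap. The mitotic members stood at 1460, 1339, 1508 and 1673 CPM, again without overlap. The Cldn10-led cluster, low in both groups of genes, made up 720 of 2653 and 76 of 846 mesenchyme-like cells in WT. In Din-KO it made up 446 of 3026 and 28 of 632. The part of this make-up in the summed levels was not tested. The median log2 fold change was 0.22 over S-phase members (17 of 20 positive), 0.09 over mitotic members (19 of 25) and 0.21 over the G1 cyclins (4 of 5), beside −0.02 over all genes tested. Of the other replication genes 29 of 37 were positive, with a median of 0.22, and of the other mitotic genes 36 of 47, with a median of 0.10. Din-KO libraries lay wholly above WT in 19 members and wholly below in 0, where 11% of all genes lay above and 6.47% below. With 2 libraries against 2, an exact permutation test cannot give a two-sided p under 0.333. In simulated data the edgeR test of this comparison recovered 44% of genes changed 4-fold, so 0 calls do not exclude such changes.

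The 5 largest fitted changes were those of Ccnd1, Mcm7, Mcm5, Aurkb and Ccnd2. Ccnd1 stood at 72.1 and 118 CPM in WT mesenchyme-like cells and 123 and 162 in Din-KO, with a log2 fold change of 0.55 (SE 0.32, adjusted p = 1.00). Both Din-KO values lay above both WT values, and the spread between the WT libraries was similar in size to the difference between the genotypes. Mcm7 stood at 58.4 and 35.7 in WT and 88.8 and 46.6 in Din-KO (0.49, SE 0.44), and Mcm5 at 8.59 and 17.03 against 14.8 and 22.0 (0.49, SE 0.42), and both overlapped. Aurkb stood at 10.9 and 11.6 against 12.8 and 18.4 (0.43, SE 0.26), and Ccnd2 at 216 and 311 against 313 and 415 (0.43, SE 0.28), both without overlap. In Ccnd2 the nearest libraries were 311 in WT and 313 in Din-KO. Among cells with Xist alone the log2 fold changes of Ccnd1, Mcm7, Mcm5, Aurkb and Ccnd2 were 0.46, 0.24, 0.47, 0.17 and 0.10.

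Among the remaining members without overlap, Mcm3 had a log2 fold change of 0.34, Top2a 0.32, Cdc6 0.32, Cdk1 0.28, Fen1 0.25, Hells 0.23 and Hmgb2 0.22. With Xist cells alone these were 0.19, −0.004, 0.15, −0.11, 0.32, −0.014 and 0.11 in the same order. Top2a stood at 121 and 85.0 CPM in WT and 138 and 127 in Din-KO, and Cdk1 at 39.8 and 29.0 against 44.8 and 40.9. Mcm3 stood at 16.8 and 22.4 in WT and 24.6 and 26.3 in Din-KO. The largest negative values were those of Cenpe at −0.32 and Cdc45, a helicase cofactor, at −0.26. In cells with Xist the median was 0.12 over S-phase members and −0.12 over mitotic members, with 20 of 25 mitotic members negative. Without Din-KO replicate 2 the mitotic median was −0.03. The sign of the mitotic median thus depends on the cells and on 1 library. Stress genes of tissue dissociation summed to 458 and 1419 CPM in WT and 832 and 2353 in Din-KO, the odontoblast gene Dspp to 25.2 and 1262 against 77.01 and 883, and macrophage markers to 70.8 and 43.1 against 91.5 and 49.95. Their part in the differences was not tested.

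**Figure D4:**
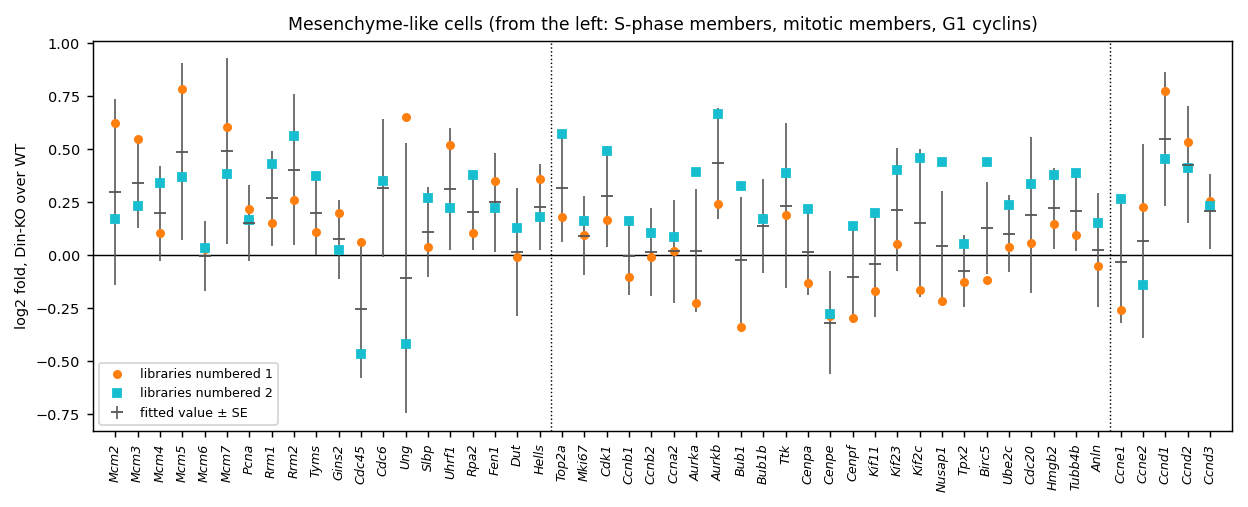
Log2 fold change of Din-KO over WT in mesenchyme-like cells for the 50 members by role, with the fitted value and its standard error, and points for each of the 2 same-numbered library pairs. On the y axis most members lie above 0 (40 of 50), none passed the test, and the standard errors of most cross 0.

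At equal depth the share of mesenchyme-like cells with S-phase genes was 5.67% and 7.13% in WT and 6.97% and 7.67% in Din-KO, a difference of 0.92 percentage points with overlapping libraries. The mitotic share was 6.96% and 9.38% in WT and 6.90% and 9.27% in Din-KO, a difference of −0.09 points. Replicate 2 exceeded replicate 1 in both genotypes and on both measures. In cells with Xist the differences were 0.39 and −0.99 points. Their S-phase shares were 5.54% and 6.47% in WT and 4.34% and 8.45% in Din-KO. Their mitotic shares were 6.65% and 8.71% against 3.88% and 9.51%. On both measures Din-KO lay below WT in the libraries numbered 1 and above it in those numbered 2.

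Within single classes no member passed the test either, by edgeR or DESeq2, where edgeR called 23 of 96079 gene tests (0.0239%). These fits were not repeated in cells with Xist. In follicle-like cells S-phase members were positive in 19 of 20 cases (median 0.22) and mitotic members negative in 21 of 25 (median −0.23). One library set the mitotic direction, since the median was 0.21 without WT replicate 1. Cenpe stood at 51.6 and 41.7 CPM in WT and 29.7 and 30.4 in Din-KO follicle-like cells (log2 fold change −0.69, unadjusted p = 0.0186 by edgeR). Ccnd1 stood at 80.4 and 103 against 120 and 169 there (0.60). The other large changes in follicle-like cells were those of Cenpf at −0.58, the checkpoint gene Bub1b at −0.57 and Rrm2 at 0.56. In pulp-like cells mitotic members were positive in 20 of 25 cases (median 0.16) and the S-phase median was −0.07. Neither held its direction, since the mitotic median was −0.19 without Din-KO replicate 2 and 0.001 without WT replicate 1, and leaving out WT replicate 2 brought the S-phase median to 0.25, as leaving out Din-KO replicate 1 brought it to 0.10. Their largest changes were those of Ccne1 at −0.54, Mcm7 at 0.50, Cdc45 at −0.49, Ccnd2 at 0.47 (156 and 174 CPM in WT, 218 and 236 in Din-KO) and Cdc20 at 0.42. The difference of the genotype effect between pulp-like and follicle-like cells was tested as an interaction, which called 0 of 13647 genes (0%) with 333 at an unadjusted p under 0.05, among them 1 member, Ccne1 at −1.02 (unadjusted p = 0.0312 by edgeR).

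In macrophage-like cells Ccnd2 stood at 28.2 and 47.6 CPM in WT and 76.5 and 80.5 in Din-KO, with a log2 fold change of 1.14 (unadjusted p = 0.0086, adjusted p = 0.956 by edgeR). Its WT and Din-KO libraries did not overlap. Of 50 members in macrophage-like cells 2 lay wholly higher in Din-KO and 6 wholly lower, where 9.6% and 15.7% of all genes did. The S-phase median of macrophage-like cells was −0.33, with 17 of 20 members negative, and 0.015 without WT replicate 1. Here Ung, Mcm4, Cenpf and Gins2 had −1.004, −0.68, 0.67 and −0.65. The share of macrophage-like cells with S-phase genes was 11.3% and 11.7% in WT and 7.04% and 3.53% in Din-KO, without overlap, the last from 3 of 85 cells. In cells with Xist it was 11.1% and 7.32% against 5.43% and 5.71%. In endothelium-like cells the share was 13.1% and 10.9% in WT and 10.5% and 4.46% in Din-KO, also without overlap, and 13.5% and 11.8% against 10.9% and 3.17% in cells with Xist. There 21 of 25 mitotic members were negative (median −0.26), but without WT replicate 1 the mitotic median was 0.64, and the S-phase median went from −0.21 to 0.45 (0.049 when Din-KO replicate 2 was left out). The largest changes were those of the checkpoint kinases Ttk at −1.37 and Bub1 at −0.998, followed by Kif11 at −0.76, Kif2c at 0.69 and Ccnb1 at −0.67. Follicle-like cells had mitotic shares of 13.4% and 11.3% in WT and 9.52% and 10.6% in Din-KO, without overlap. In cells with Xist these were 12.5% and 10.6% against 6.38% and 12.3%, which overlapped.

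In the rarer classes the lower side of the largest changes held few UMIs, such as 1 and 0 UMIs of Mki67 in Din-KO B-like cells against 17 and 32 in WT. In B-like cells, of which 58 and 57 were Din-KO, Mki67 stood at 65.0 and 89.6 CPM in WT and 5.82 and 0 in Din-KO (log2 fold change −4.57) and Top2a at 145 and 86.8 against 11.6 and 18.7 (−2.78). WT libraries lay above Din-KO libraries for both genes, and neither passed the test. Of 11 members tested in B-like cells 3 lay wholly lower in Din-KO and 1 wholly higher, where 15.6% and 8.97% of all genes did. Hmgb2, Cenpa and Tubb4b had −0.88, −0.73 and 0.53. In odontoblast-like cells Ube2c had −2.85 and Top2a −1.95, with Top2a at 50.9 CPM in WT replicate 1 and at 2.32 to 11.3 CPM in the other libraries, followed by Cenpa at −1.22, Ccnb1 at −1.06 and Hmgb2 at −0.78. In B precursor-like cells Cdc6 stood at 37.2 and 24.1 against 4.81 and 6.69 (−2.33), with Kif2c, Ccne2, Bub1b and Aurka between 0.68 and 0.84. In epithelium-like cells the uracil glycosylase gene Ung had 1.32, Ccnd2 0.92, Ube2c −0.75, Aurka −0.64 and Uhrf1 0.63. In monocyte or dendritic-like cells Nusap1 had −1.35, Rrm2 1.05, Uhrf1 0.85, Cenpf −0.80 and Mcm6 0.73. In the Cldn10-led cluster Top2a had 1.06, Mcm6 −0.94, Mcm2 0.93, Fen1 0.78 and Ccnd1 0.55. The medians of the 4 to 20 S-phase members tested in these 6 classes lay between −0.22 and 0.27. The mitotic medians were −1.14 in odontoblast-like cells (6 of 6 tested members negative) and −0.88 in B-like cells (4 of 5), and between −0.19 and 0.19 in the other 4 classes. With 1 library left out in turn these S-phase medians ran from −0.77 to 1.35 and the mitotic medians from −3.29 to 1.97, the highest of both being those of epithelium-like cells without WT replicate 1.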

How the data were processed

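Single cells of proximal lower-incisor tissue were measured in 4 libraries (2 WT, 2 Din-KO). The values deposited are UMI counts of each gene in each barcode, in a matrix for every library, made with bcl2fastq and Cell Ranger 6.0.2 (per the file headers) on mm10 (GRCm38). Only confidently mapped UMIs entered them. Libraries held 32198098 to 54348039 UMIs, and intervals cover counting error only.

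Kept barcodes had 1000 genes or more, mitochondrial UMIs up to 10% and hemoglobin UMIs up to 3%, the study's filter. Cells were clustered in Seurat 5.3.0 (R 4.3.3; 2000 variable genes less 93 cycle genes, cell-cycle scores regressed out, 30 principal components, resolution 1) and named from marker lists. Scrublet in scanpy 1.11.5 (Python 3.11.15) marked 25 cells (0.221%), too few to have worked, so no cell was removed as a doublet. UMI counts were summed per library and class where each library had at least 20 cells, and tested with edgeR 4.0.16 (TMM, filterByExpr, quasi-likelihood, Benjamini-Hochberg over all genes tested, threshold 0.05), or DESeq2 1.42.0 as an alternative. CPM relates a gene's UMIs to all UMIs of the class in that library. Cells with Xist are those with at least 3 Xist UMIs and no UMI of the Y-linked genes. Scripts were tested on simulated data with 200 genes changed 4-fold. The test of Din-KO against WT in mesenchyme-like cells recovered 44% of them, with 5 false calls. The test of follicle-like against pulp-like cells recovered 100%, with 10 false calls.

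The members, lists and markers were chosen with earlier results of these data known. Values in full were given for the 3 called members with the largest fold per class, the 5 members with the largest change and up to 10 without overlap per genotype comparison, the D and E cyclins in every class, and Top2a, Mki67, Cdk1, Pcna and the MCM genes in mesenchymal subtypes, and the 5 genes most like Mki67 were named. The comparisons of pulp-like with follicle-like and with Cldn10-led cells, the settings on histone genes and on the Cldn10-led cluster, and the Xist shares were added after the data were seen. Promoter windows came from RefSeq (GRCm38.p6).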

Additional observations from a re-analysis of the deposited data

Results flagged for a closer look

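The share of cells with core S-phase genes changed in opposite directions between classes. Din-KO minus WT was 1.51 percentage points in follicle-like cells, with both same-numbered pairs above 0, and −4.50 in endothelium-like, −6.20 in macrophage-like and −0.68 points in the Cldn10-led cluster, with both pairs below 0. The difference between the classes was not tested. WT and Din-KO libraries overlapped in follicle-like cells and in the Cldn10-led cluster, where pair 1 differed by −0.04 points and pair 2 rested on 0 of 28 Din-KO cells. In cells with Xist the follicle-like shares were 7.90% and 5.29% in WT and 3.19% and 9.43% in Din-KO, so the pairs no longer moved one way.

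Barcodes left out for more than 3% hemoglobin UMIs, but otherwise within the limits, held many core cycle genes. The share with core S-phase genes was 62.1% of 195 barcodes in WT replicate 1, 58.3% of 84 in WT replicate 2, 8.70% of 46 in Din-KO replicate 1 and 26.7% of 45 in Din-KO replicate 2. The share with core mitotic genes was 83.1%, 78.6%, 17.4% and 51.1% in the same order. The 8.70% is 4 barcodes, with an exact 95% interval from 2.42% to 20.8%. These barcodes are listed because they entered none of the comparisons. Free RNA was not removed and its part in these shares was not tested, so they may differ from the shares of dividing cells.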

How the results depend on the processing

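The replicate numbers were not taken to pair the libraries. Same-numbered deviations from the group means correlated at 0.845 over 13452 genes, but there were only 2 pairs and no label says what a number shares. With the replicate block 220 genes and 1 member were called in mesenchyme-like cells, Ccnd1 at a log2 fold change of 0.58 (adjusted p = 0.0284 by edgeR), against 0 without it, and 4 members within classes against 0 (Top2a −2.73 and Mki67 −4.59 in B-like, Top2a −1.85 and Ube2c −2.75 in odontoblast-like cells).

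Members called over the 10 class contrasts numbered 274 in all, from 217 to 269 when a library was left out, 159 in WT libraries only and 170 with the Cldn10-led cluster counted as pulp. Over the 3 subtypes they numbered 127, from 98 to 125 without a library, 27 in WT only and 57 with histone genes also left out of the clustering. The median log2 fold change of mitotic members, 0.09, was −0.12 in cells with Xist and ran from −0.034 (without Din-KO replicate 2) to 0.21 without a library, and that of S-phase members, 0.22, from 0.15 to 0.30. The S-phase share difference of 0.92 points was 2.53 at 4000 UMIs, −2.34 without thinning, 0.060 for at least 3 genes and 0.19 to 1.65 without a library. The mitotic share difference of −0.09 points was 0.41 at 1000 UMIs, 0.53 at 4000 UMIs, −2.60 without thinning, −1.78 for at least 1 gene, −0.99 in cells with Xist, 0.40 for at least 3 genes and −1.30 to 1.13 without a library (1.10 without Din-KO replicate 1, 1.13 without WT replicate 2). The cause of these changes was not tested. Counts per class stayed within 1.5 times in 314 of 416 alternatives. Depth limits the rarest classes, with 35 odontoblast-like cells in WT replicate 1 and 28 Cldn10-led cells in Din-KO replicate 2.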
